A study of Homo sapiens with 6 samples.

Results

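Solute carriers are membrane proteins that move ions, sugars, nucleotides, metals and other small molecules across membranes. The genes described here are the solute carriers whose symbol in the platform annotation begins with SLC, a family number, the letter A and a member number. Families SLC1, SLC3, SLC6, SLC7, SLC38 and SLC43, which mainly carry amino acids, and the glucose carrier gene SLC2A3 were left out. Only probes that the platform annotation gives a single gene were used, and probes of a gene were averaged. This rule took 157 of 14080 probes and 124 of 8987 genes. Of these genes, 22 belong to SLC25, the family of mitochondrial carriers, and 102 do not. All 22 SLC25 genes and 101 of the others were measured on all 5 harvest arrays. The exception was SLC22A4, an organic cation carrier, which had no value at 10 min and stood at 1.64, 1.83, 0.55 and 2.41 at 0 min, 30 min, 1 h and 8 h.

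The series consists of 6 two-colour arrays of GM00156, a human cell line of the Coriell repository whose cell type the labels do not state. On 5 arrays, mRNA of cells given emetine (100 µg/ml for 10 h), which stops ribosomes on mRNA, was hybridised with mRNA of untreated cells. Both were given actinomycin D (5 µg/ml), which blocks RNA synthesis, and were harvested 0, 10 or 30 min, 1 h or 8 h later. The remaining array paired emetine-treated 0 min RNA with itself (self-self), and its labels mention no actinomycin D. Each dye carried 4 µg of mRNA, with Cy5 for untreated and Cy3 for treated cells. The deposited value of a gene is a log2 ratio of the channels, and which channel is the numerator is not given. Ratios are therefore described as lying on the positive or the negative side, and no direction of change can be read from them. The description of the 0 min array names treated RNA on both sides, against its channel names, so results are also given without it where it matters.

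Each harvest had 1 array. Genes were therefore called on their mean over the 5 harvests with limma, at a Benjamini-Hochberg adjusted p of 0.05 over all 8748 genes measured at every harvest. The p-values and SE measure only the spread of 5 arrays around a line over time, with 3 residual degrees of freedom per gene. Empirical Bayes moderation draws the spread of each gene towards that of all genes, so they are not from its own 5 values alone. Nothing in the labels says that the harvests came from separate cultures. The robust SD of all genes was 0.11 on the self-self array and 0.42 to 0.88 at the harvests. The 1 h array stands apart, since its highest value over all genes was 1.90 against 5.94 to 7.14 at the other harvests. Its lowest value over all genes was -7.560, against -4.655 to -2.224 at the other harvests. The median gene mean was 0.139, and 0.023 after each array was centred on its own median, so a small mean has no firm side. Values of single genes below follow the order 0 min, 10 min, 30 min, 1 h and 8 h.

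Mitochondrial carriers sit mostly in the inner mitochondrial membrane. They exchange ATP for ADP, take up phosphate for ATP synthesis, and pass citric acid cycle intermediates, amino acids, cofactors and iron between matrix and cytosol. The carriers of the other families work mainly at the cell surface, where many use the sodium gradient set up by the sodium pump, and some work in Golgi, endosomes, lysosomes and secretory vesicles. By a compartment list based mainly on family, 75 of the 101 measured other genes were placed at the plasma membrane and 18 in inner membranes. A family number does not fix the membrane of each gene. The SLC27 fatty acid proteins, 4 genes, were not placed. A further 4 genes matched the rule by name without being carriers, namely SLC4A1AP, the non-coding SLC9A3-OT1, SLC67A1-AS, and the pseudogene SLC2A3P1. Their means were 0.61, 0.08, 0.42 and 0.42. The rest is therefore not purely a set of plasma membrane genes.

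Promoter windows are shown for 4 mitochondrial carriers at the ends of the family. They are SLC25A25, which had the highest mean ratio, and SLC25A5, SLC25A15 and SLC25A3, which had the 3 lowest. Each is the 250 bases before an annotated transcription start, from RefSeq on GRCh38.p14, plus strand, written 5′ to 3′. Capitals mark the motif match found by a script in that window. The first lies at chr9:128098257-128098506 and holds the cyclic AMP response element letters TGACGTCA, starting 200 bases before the start site. It is 1 of 3 windows annotated for the gene and is shown because it holds a match, while the other two hold none of the motifs searched. The second, at chrX:119468194-119468443, holds the TATA letters TATAAA 27 bases before the start. The third, of SLC25A15 at chr13:40789361-40789610, holds none of the motifs searched. The fourth, at chr12:98593436-98593685, holds the letters of the NRF1 motif, the nuclear respiratory factor site, 214 bases before the start.
SLC25A25: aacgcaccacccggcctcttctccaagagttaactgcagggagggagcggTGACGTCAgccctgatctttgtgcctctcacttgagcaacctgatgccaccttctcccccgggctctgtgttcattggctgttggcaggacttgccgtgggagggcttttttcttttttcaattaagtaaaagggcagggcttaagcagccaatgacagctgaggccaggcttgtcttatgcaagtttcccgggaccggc
SLC25A5: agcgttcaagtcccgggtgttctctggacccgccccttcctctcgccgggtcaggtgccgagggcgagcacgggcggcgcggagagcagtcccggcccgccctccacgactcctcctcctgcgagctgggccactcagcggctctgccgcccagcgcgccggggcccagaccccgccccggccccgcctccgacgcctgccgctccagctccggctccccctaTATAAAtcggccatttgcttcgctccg
SLC25A15: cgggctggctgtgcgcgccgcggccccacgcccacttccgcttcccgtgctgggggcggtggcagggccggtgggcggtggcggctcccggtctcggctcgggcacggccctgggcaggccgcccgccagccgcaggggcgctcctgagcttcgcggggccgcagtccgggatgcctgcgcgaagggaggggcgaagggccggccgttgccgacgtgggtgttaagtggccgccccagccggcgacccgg
SLC25A3: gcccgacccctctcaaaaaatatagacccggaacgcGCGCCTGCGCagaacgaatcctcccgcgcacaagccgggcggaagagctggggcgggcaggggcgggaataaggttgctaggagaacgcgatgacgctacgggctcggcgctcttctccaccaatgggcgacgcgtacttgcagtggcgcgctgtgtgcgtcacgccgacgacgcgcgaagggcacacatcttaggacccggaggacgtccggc
The motifs searched on both strands were TGACGTCA, TATAAA, the NRF1 motif (GCGCA followed by any base and then GCGC), the AP-1 letters TGANTCA and the E-box letters CACGTG. None of these motifs contains another. Windows were found for 19 SLC25 genes (24 windows) and 85 other carrier genes (127 windows). TGACGTCA was in 8.33% of the SLC25 windows, 3.15% of the other carrier windows and 1.65% of all 35116 windows. The NRF1 letters were in 8.33%, 1.57% and 5.07%, and the E-box letters in 16.67%, 9.45% and 6.34%. For TATAAA the shares were 4.17%, 5.51% and 10.72%, and for the AP-1 letters 4.17%, 4.72% and 6.57%. In the SLC25 windows the first 2 shares rest on 2 windows each, and a match is a description of letters, not of binding.

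The mitochondrial carriers had a lower median ratio than the other solute carriers, and also held the largest single ratio among all carriers. A gene that passed is called negative or positive after the side of its mean. Of 22 SLC25 genes, 9 were called negative (40.9%), 6 positive (27.3%) and 7 did not pass. Of 101 other genes, 20 were called negative (19.8%), 41 positive (40.6%) and 40 did not pass. Among all genes, 25.3% were called negative and 37% positive. The median gene mean was -0.18 for SLC25, 0.22 for the others and 0.14 for all genes. The difference of medians, SLC25 minus the others, was -0.40. It ranged from -0.30 to -0.48 when each harvest array was left out in turn. Without the 0 min array, whose labels conflict, 9 SLC25 genes were called negative and 7 positive, and 20 and 42 of the others. The groups overlapped widely, with gene means from -1.47 to 3.90 in SLC25 and from -1.58 to 2.27 in the others, so the contrast is one of medians and counts. It has no test of its own, since the genes were chosen with results of these data known.

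On every array the SLC25 median was below that of the other carriers. At self-self it was -0.02 against 0.04, a difference of -0.06. At 0 min the medians were -0.11 and 0.08. At 10 min they were -0.22 and 0.32, which was the widest difference, -0.54. The 10 min array also had the widest spread over all genes, with a robust SD of 0.88 against 0.42 to 0.83 at the other harvests. At 30 min and 1 h the differences were -0.29 and -0.26. At 8 h the medians were 0.03 and 0.14, and the difference was -0.11. The small self-self difference has the same sign as those at the harvests, and subtracting the self-self value from each gene gave a difference of medians of -0.30. Relative to the median of all genes, the other carriers were at 0.02 to 0.21 from 0 min to 1 h and at -0.03 at 8 h. The SLC25 median stood at -0.34 to -0.15 relative to that of all genes at the harvests.

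**Figure D1:**
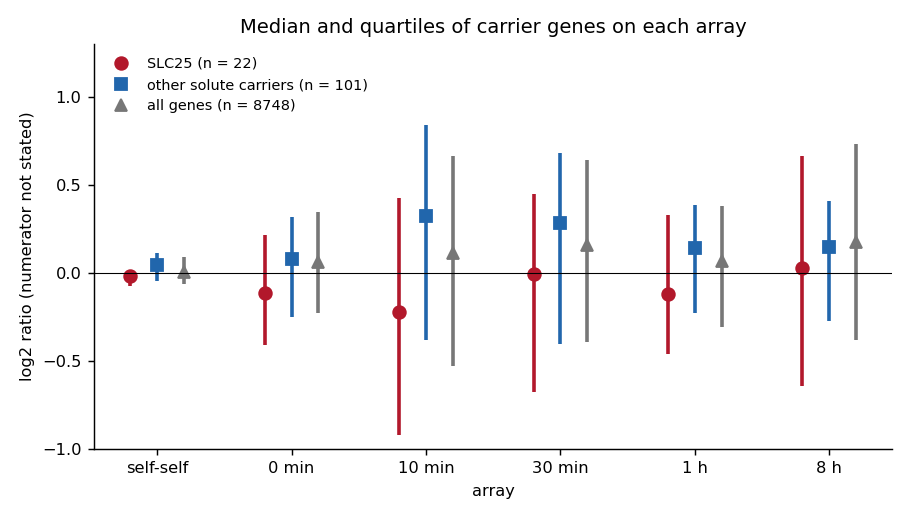
Log2 ratio (vertical axis) of the 22 SLC25 genes, up to 101 other solute carriers and all genes on each of the 6 arrays, as the median (symbol) with its lower and upper quartile (line). The SLC25 median is the lowest of the 3 at each array, with the widest difference from the other carriers at 10 min, -0.22 against 0.32.

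Single harvests were set against the central 99% of self-self values over all genes, -0.28 to 0.43. At 10 min, 11 of 22 lay below it and 6 above it, where 33.7% of all genes lay below and 35.9% above. At 0 min, 10 were below and 2 above, where the shares of all genes were 21.5% and 20.3%. Of the other carriers, 28 of 101 lay below and 46 above at 10 min. At 8 h the counts of other carriers were 24 below and 25 above, where 28.9% and 36.6% of all genes lay outside the range. For the carriers outside SLC25 the share above the range was thus higher than that of all genes at 10 min and lower at 8 h. Without replicate arrays these counts have no test.

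Within SLC25 the carriers that handle the adenine nucleotides and phosphate for ATP synthesis lay on the negative side. SLC25A5, the ADP/ATP exchanger of dividing cells, stood at -1.03, -2.02, -1.72, -1.25 and -1.31, and at -0.21 on the self-self array. All 5 harvests were more negative than self-self, and the mean was -1.47 ± 0.16 (SE, n = 5 arrays, limma adjusted p = 0.000462), a 2.76-fold ratio. SLC25A4, the ADP/ATP exchanger of heart and muscle, had -0.54, -1.17, -0.66, -0.55 and -0.83, with a mean of -0.75 ± 0.13 (limma adjusted p = 0.00196). Its self-self value of -0.27 was the lowest among the SLC25 genes. It was measured by 9 probes, which all passed on the negative side with means of -0.82 to -0.70. SLC25A6, also an ADP/ATP exchanger, is not among the single-gene probes. SLC25A3, which brings phosphate into the matrix, had -0.34, -1.59, -1.37, -1.29 and -0.49. Its mean was -1.02 ± 0.20 (limma adjusted p = 0.00348), and the 0 min and 8 h arrays were far less negative than the 3 between them.

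The carnitine and basic amino acid carriers also lay on the negative side. SLC25A15 exchanges ornithine for citrulline in the urea cycle and had -0.72, -1.46, -1.81, -0.81 and -1.004, a mean of -1.16 ± 0.18. SLC25A20, which brings acylcarnitines in for fatty acid oxidation, had -0.72, -1.15, -1.34, -0.85 and -0.83, a mean of -0.98 ± 0.13. Both genes were near 0 on the self-self array, at -0.01 and -0.12, and their limma adjusted p-values were 0.0011 and 0.000646. Their harvest values peak in size at 30 min, while those of SLC25A5 and SLC25A3 do so at 10 min. Each time is 1 array, and the robust SD of all genes was 0.88 at 10 min and 0.76 at 30 min. A difference in timing cannot be told apart from such differences between arrays.

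SLC25A25, a calcium-regulated carrier that exchanges ATP-Mg for phosphate, had the largest mean in size of all 123 measured carriers. It stood at 3.97, 4.12, 5.12, 1.21 and 5.09, against -0.05 on the self-self array. The 1 h value was far below the rest, on the array whose positive values end at 1.90. The mean was 3.90 ± 0.51 (limma adjusted p = 0.000617), a 14.9-fold ratio. Without the 1 h array it was 4.57. It is the only ATP-Mg/phosphate carrier among the genes measured. Leaving it out moved the contrast of SLC25 with the other carriers from -0.40 to -0.42.

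The remaining positive SLC25 genes were much smaller in mean. SLC25A44, which carries branched-chain amino acids, had 1.08, 1.06, 1.63, 0.88 and 1.01 and a mean of 1.13 ± 0.14 (limma adjusted p = 0.000512). SLC25A32, linked to folate and flavin adenine dinucleotide uptake, had 0.40, 0.77, 0.94, 0.56 and 0.52, a mean of 0.64. SLC25A37, mitoferrin 1, which supplies iron for haem, had 0.27, 0.65, 0.57, 0.38 and 0.72, a mean of 0.52. These genes were positive on all 5 harvest arrays. SLC25A22, a glutamate carrier, had 0.30, 0.48, 0.46, 0.35 and 0.80, a mean of 0.48. SLC25A14, a relative of the uncoupling proteins, had 0.25, 0.14, 0.38, 0.37 and 0.93 and a mean of 0.41 (limma adjusted p = 0.0112). Its call rests on the 8 h array, without which the mean was 0.29 and the adjusted p was 0.095.

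Several substrate groups held genes on both sides. SLC25A38, the glycine carrier needed for haem synthesis, had -0.44, -0.86, -0.53, -0.38 and 0.20, opposite in mean (-0.40) to the iron carrier SLC25A37. The SLC25A38 call (limma adjusted p = 0.0212) was lost without the 10 min or the 30 min array, with self-self subtracted and with no slope in the fit. The median of SLC25A37 and SLC25A38 was 0.06, and -0.06 after centring. SLC25A27, another relative of the uncoupling proteins, had -0.35, -0.85, -0.96, -0.49 and -0.53, opposite to SLC25A14. SLC25A46, an outer membrane protein of mitochondrial shape, had -0.39, -0.95, -0.68, -0.32 and -0.68. In both, all 5 harvests were negative, with means of -0.64 and -0.60. Of the 5 cofactor and nucleotide carriers, only SLC25A32 passed. Their median was 0.04, and -0.07 after centring. The peroxisomal SLC25A17, the pyrimidine nucleotide carrier SLC25A36, SLC25A16 and the coenzyme A carrier SLC25A42 did not pass, with means of -0.29, -0.20, 0.04 and 0.31.

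Of the 5 carriers of di- and tricarboxylates, aspartate and glutamate, 1 passed on each side. SLC25A11, which exchanges oxoglutarate for malate, had -0.42, -0.69, -0.63, -0.37 and -0.32, a mean of -0.49 ± 0.11 (limma adjusted p = 0.00632). Its 2 probes disagreed, with means of -0.99 and 0.02. SLC25A1, the citrate carrier, lay between -0.26 and -0.03 at all harvests and did not pass. The aspartate-glutamate carriers SLC25A12 and SLC25A13 had means of 0.14 and 0.18 and did not pass. SLC25A13 was the only carrier gene with probes past the threshold on both sides, at -0.35 (limma adjusted p = 0.0253) and 0.71 (limma adjusted p = 0.00325). Its gene mean near 0 is thus an average of opposite probes.

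**Figure D2:**
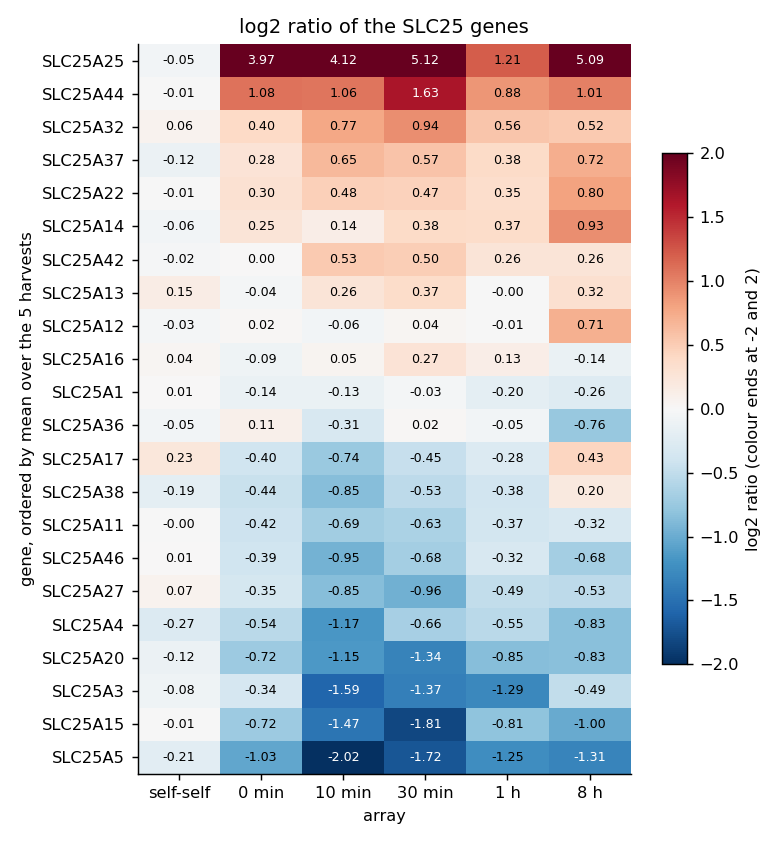
Log2 ratio of each of the 22 SLC25 genes (vertical axis, ordered by mean over the 5 harvests) on the self-self array and the 5 harvest arrays (horizontal axis), written in each cell and shown as colour that ends at -2 and 2. SLC25A25 reaches 5.12 at 30 min, SLC25A5 is at the other end with -2.02 at 10 min, and the self-self values lie between -0.27 and 0.23.

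Over the 5 harvests, 16 of the 22 SLC25 genes kept 1 sign, 9 negative and 7 positive. Among the other carriers, 24 were negative and 43 positive at all harvests and 34 were mixed. Of all genes, 25.4% were negative and 37.8% positive throughout. The 9 SLC25 genes called negative had their most negative value at 10 min (6 genes) or 30 min (3 genes), and their least negative most often at 0 min (6 genes). Of all 2217 genes called negative, 56.4% had their most negative value at 10 min and 56.3% their least negative at 0 min.

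At the plasma membrane, 32 of 75 carriers were called positive (42.7%) and 16 negative (21.3%), where 37% and 25.3% of all genes were. The median was 0.22. After centring the counts were 24 and 20, where 2540 of all 8748 genes were called positive and 2681 negative. With self-self subtracted they were 23 and 16 of 74, where 2856 of 8725 genes were called positive and 2100 negative. In inner membranes, 5 of 18 were called positive and 3 negative, with a median of 0.09, which turned to -0.03 after centring. With self-self subtracted those counts were 4 and 5. The counts of the substrate lists below are small. Without centring, scaling or subtraction they stand beside the same shares over all genes, 37% positive and 25.3% negative. Counts after centring or with self-self subtracted stand beside the counts over all genes just given for those settings. With arrays scaled to equal spread, 3542 of all 8748 genes were called positive and 2458 negative. The 5 genes of families numbered later than the lists, counted with the plasma membrane here, had a median of -0.45. Their calls were 1 positive (SLC71A1, mean 0.54) and 3 negative. The negative ones were SLC75A1, SLC49A3 and SLC66A3, with means of -0.77, -0.63 and -0.45. SLC49A3 was at 0.74 on the self-self array, opposite in sign to its harvests, which ran from -1.05 to -0.35.

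Sugar carriers included genes at both ends. SLC5A1, the sodium-driven glucose carrier of intestine and kidney, had 2.26, 2.68, 2.49, 1.49 and 2.44, and 0.15 at self-self. It had the largest mean outside SLC25, 2.27 ± 0.18 (limma adjusted p = 0.000462), and its 5 harvests all lay far above self-self. SLC2A1, the widespread facilitative glucose carrier, had -0.78, -1.52, -1.23, -0.85 and -1.45, with a mean of -1.17 ± 0.14 (limma adjusted p = 0.000522). Its 2 probes agreed, at -1.18 and -1.15. The other 10 of 12 sugar carriers did not pass, among them the insulin-responsive SLC2A4 at 0.25 and SLC45A4 at 0.28.

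Copper carriers lay on opposite sides. SLC31A1, the high-affinity copper importer, had -0.70, -1.996, -1.96, -1.44 and -1.80. Its mean of -1.58 ± 0.18 (limma adjusted p = 0.000487) was the most negative of all measured carriers. SLC31A2, its relative, which is known mainly from endosomes and lysosomes but counted by family with the plasma membrane here, had 1.95, 2.07, 0.97, 0.81 and 2.09, with a mean of 1.58 ± 0.22 (limma adjusted p = 0.000832). The harvest values of this pair did not overlap, but both genes were named for their large means. Of the other metals, the iron exporter SLC40A1 had 0.16, 0.87, 0.56, 0.49 and 0.17 and passed with a mean of 0.45. SLC41A3, a magnesium carrier, had -0.19, -0.78, -0.45, -0.34 and -1.10, a mean of -0.57. In this list 2 of 6 were called on each side (1 positive and 2 negative after centring), and its median of 0.08 became -0.03 after centring.

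Of 8 zinc carriers, 4 were called positive and 2 negative, with a median of 0.21. SLC39A14, which takes up zinc, iron and manganese, had 0.57, 0.64, 0.68, 0.46 and 1.56, a mean of 0.78 ± 0.13 (limma adjusted p = 0.00158). SLC39A13, a zinc carrier of the Golgi, had -0.62, -1.33, -0.58, -0.53 and -0.60. SLC30A9, counted with the inner membranes by its family number alone, had -0.33, -0.70, -0.68, -0.42 and -0.88. Their means were -0.73 and -0.60. SLC39A1, a zinc importer of the cell surface, had -0.17, -0.57, -0.57, -3.82 and -0.42. Its mean of -1.11 ± 0.49 did not pass (limma adjusted p = 0.0772), and the 1 h value lay far below the others. The 1 h array also held the lowest harvest value over all genes, -7.560. Without the 1 h array its mean was -0.43 and passed (limma adjusted p = 0.0216), and without the 8 h array it was -1.28 and also passed (limma adjusted p = 0.0196). SLC30A1, the zinc exporter, was picked after its values were seen. It had 0.05, 0.47, 0.66, 0.39 and 1.28, with a mean of 0.57.

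Sodium-phosphate carriers of the SLC20 family differed at the early harvests. SLC20A2 had 1.14, 1.13, 1.58, 0.70 and 2.89, a mean of 1.49 ± 0.20 (limma adjusted p = 0.000676). SLC20A1 had -0.49, -0.61, -0.10, -0.81 and 1.54, so its 8 h value was on the other side from the rest. Its mean was -0.09 and did not pass (limma adjusted p = 0.706). Without the 8 h array the mean was -0.50 and passed on the negative side (limma adjusted p = 0.0312). Both genes had their highest value at 8 h. Of the 9 phosphate carriers and their relatives, 4 were called positive and 1 negative. After centring the positive count was 1, with SLC17A1, SLC17A7 and SLC34A2 lost, and with self-self subtracted it was 2. The negative one was SLC17A3, an organic anion carrier of the kidney, with -0.48, -1.18, -0.65, -0.37 and -0.66. SLC17A7, a vesicular glutamate carrier of neurons, had 0.06, 1.02, 0.68, 0.44 and 0.02, a mean of 0.44, and its call was also lost without the 10 min, the 30 min or the 1 h array.

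**Figure D3:**
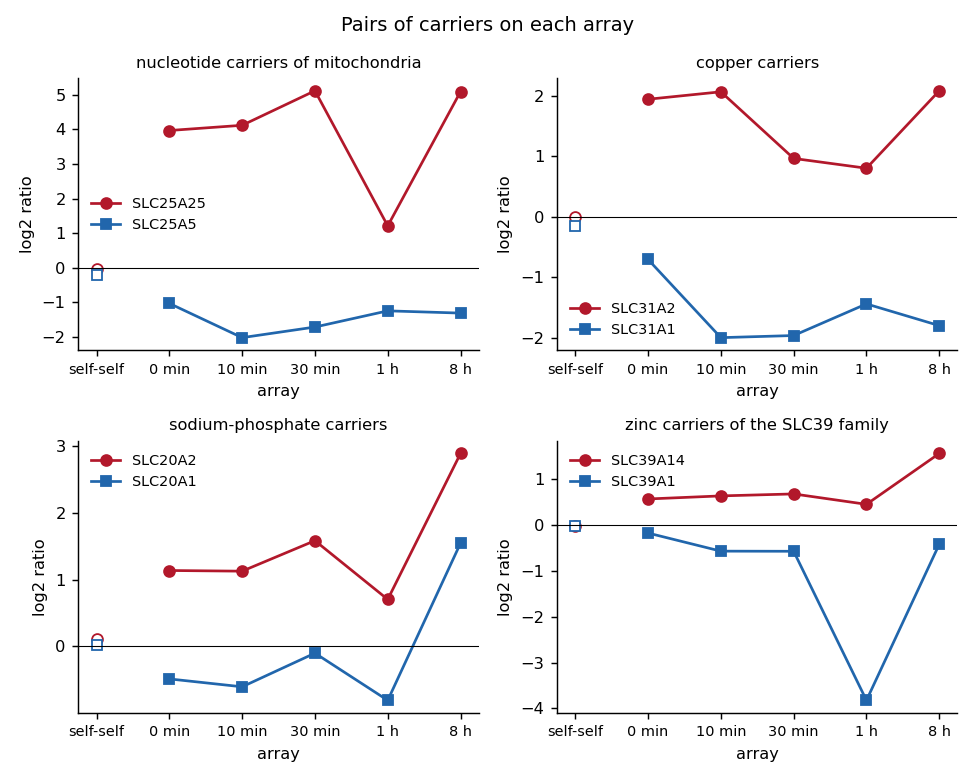
Log2 ratio of 4 pairs of carriers on each array (horizontal axis; open symbol for self-self, filled symbols for the harvests). SLC31A2 and SLC31A1 lie apart at every harvest, SLC20A1 moves from -0.49 at 0 min to 1.54 at 8 h beside SLC20A2, SLC39A1 has 1 value at -3.82, and SLC25A25 has its lowest harvest value, 1.21, at 1 h.

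Of 4 exchangers of sodium for protons or calcium, 3 were called positive and 0 negative. SLC9A8, which works in the Golgi, had 1.06, 1.25, 1.43, 0.77 and 1.53, a mean of 1.21 ± 0.13 (limma adjusted p = 0.000462). Its 2 probes both passed, with means of 0.72 and 1.69. SLC9A5, a neuronal exchanger, had 0.78, 1.11, 0.87, 0.47 and 0.88, a mean of 0.82. SLC24A1, the sodium, calcium and potassium exchanger of rod photoreceptors, had 0.37, 1.14, 0.98, 0.57 and 0.51, a mean of 0.72. The fourth gene of the list, SLC8A2, had a mean of -0.01 and did not pass.

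Bicarbonate and anion carriers were split, with 4 of 10 passing on each side and a median of -0.11. With self-self subtracted, 2 were called positive and 4 negative. SLC4A7, a sodium-bicarbonate carrier, had 0.76, 1.58, 0.97, 0.54 and 0.08, a mean of 0.79 ± 0.16, and its self-self value was 0.29. SLC26A4, an anion exchanger of inner ear and thyroid, had 0.44, 1.36, 0.96, 0.24 and 0.22. In both genes the 10 min value was the highest. SLC4A4, the sodium-bicarbonate carrier of kidney and pancreas, had -1.01, -0.78, -0.73, -0.31 and -0.84, and SLC26A6, an anion exchanger, had -0.55, -1.21, -1.15, -0.74 and -0.67. Their means were -0.73 and -0.86. The sulphate carrier SLC26A2 had a gene mean of -0.50, but its 2 probes stood at -1.21 and 0.20, and only the first passed.

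Of 6 cation-chloride carriers, 3 were called positive and 1 negative. SLC12A7, a potassium-chloride carrier, had 0.34, 1.04, 1.13, 0.35 and 0.39, a mean of 0.65. SLC12A4, of the same kind, had 0.42, 0.40, 0.54, 0.15 and 0.72, a mean of 0.44. SLC12A3, the thiazide-sensitive sodium-chloride carrier of the kidney, had -0.35, -1.15, -0.69, -0.47 and -0.69, a mean of -0.67. SLC12A1, its loop diuretic-sensitive relative, had 0.24, 0.43, 0.47, 0.07 and 0.31 and a mean of 0.30. The SLC12A1 call (limma adjusted p = 0.0461) was lost after centring and without the 0 min, 10 min, 30 min or 8 h array.

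Of 10 organic ion carriers, 5 were called positive and 1 negative. The positive count was 4 after centring, 7 with arrays scaled to equal spread, and 3 of the 9 measured genes with self-self subtracted. SLC22A13, a urate and organic anion carrier, had 0.86, 0.84, 1.58, 0.95 and 1.19, and SLC22A6, the organic anion carrier of kidney tubules, had 0.81, 1.12, 1.47, 0.56 and 1.43. Their means were 1.09 ± 0.14 and 1.08 ± 0.15. SLC22A14 had 0.42, 0.98, 0.80, 0.89 and 0.14. The negative gene was SLC22A17, linked to lipocalin uptake, with -0.28, -0.38, -0.86, -0.40 and -0.90, a mean of -0.57.

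The nucleoside, vitamin and lipid carriers held several of the larger negative means, but the lists were not negative throughout. Of 2 nucleoside carriers, 1 was called negative and 0 positive. Of 5 vitamin and choline carriers, 2 passed on each side, and of 4 fatty acid carriers 1 on each side. The fatty acid list had a median of 0.27. Its positive gene, SLC27A2 (mean 0.39), lost its call after centring. SLC29A1, the main equilibrative nucleoside carrier, had -0.88, -1.76, -1.998, -1.28 and -1.06, a mean of -1.40 ± 0.18 (limma adjusted p = 0.000574). Its relative SLC29A2 stayed between -0.14 and 0.13 and did not pass. SLC27A4, a fatty acid transport protein, had -0.91, -1.51, -1.49, -1.05 and -0.84. Its mean was -1.16 ± 0.14 and its 2 probes were at -1.17 and -1.15. SLC44A2, a choline-like carrier, had -0.32, -0.97, -0.73, -0.64 and -1.08, a mean of -0.75. SLC23A2, the widespread ascorbate carrier, had -0.27, -0.37, -0.95, -0.64 and -0.92, a mean of -0.63, whereas SLC23A1, the ascorbate carrier of epithelia, had 0.26, 0.66, 0.81, 0.29 and 0.23, a mean of 0.45. SLC19A2, a thiamine carrier, was positive with 0.34, 1.03, 0.86, 0.60 and 1.98, a mean of 0.96 ± 0.14.

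Among carriers of the secretory pathway, SLC33A1, which brings acetyl-CoA into the endoplasmic reticulum, had -0.60, -0.41, -0.90, -0.60 and -0.94. SLC35A5, of the nucleotide sugar family, had 0.71, 0.94, 0.94, 0.50 and 1.51, a mean of 0.92. The nucleotide sugar carrier SLC35A3 had -0.30, -0.23, 0.03, -0.02 and -0.65 and did not pass. Its self-self value was 0.55, beyond all of its harvest values.

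Bile acid and carboxylate carriers had 3 of 7 passing on the positive side, and the peptide, urea, proton-coupled amino acid and vesicular amine list 4 of 6. Neither list had a gene passing on the negative side, but after centring SLC10A3 and SLC10A1 did, and 2 of that list did with arrays scaled to equal spread. The positive count of the peptide list was 1 after centring and with self-self subtracted. SLC13A3, a dicarboxylate carrier, had 0.39, 0.77, 0.68, 0.34 and 0.73, and SLC16A4 had 0.50, 1.02, 0.94, 0.24 and 0.34. The lysosomal SLC36A1 and the intestinal and renal peptide carriers SLC15A1 and SLC15A2 had means of 0.47, 0.39 and 0.43. The urea carrier SLC14A1 had a mean of 0.39. The calls of SLC15A1, SLC15A2 and SLC14A1 were lost after centring and without the 10 min or the 30 min array. Those of SLC40A1 and SLC23A1 were also lost without the 10 min or the 30 min array, and those of SLC36A1 and SLC12A4 without the 30 min array.

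**Figure D4:**
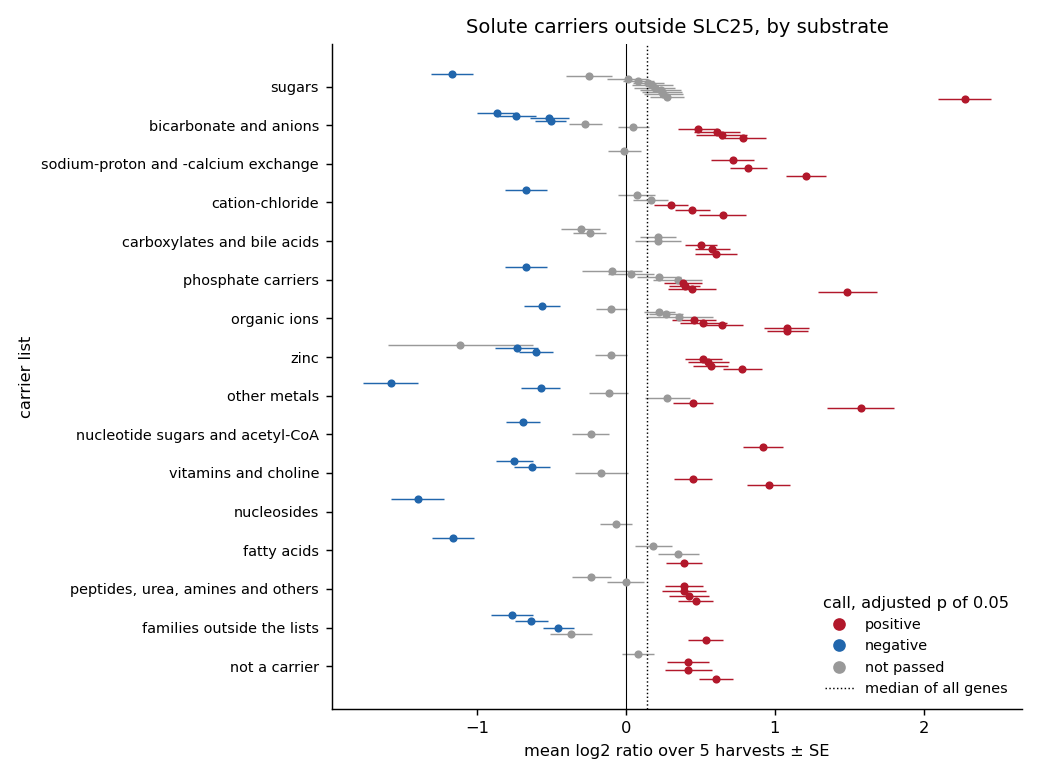
Mean log2 ratio over the 5 harvests with its SE (horizontal axis) for the 101 solute carrier genes outside SLC25, grouped by substrate list (vertical axis) and coloured by call at an adjusted p of 0.05. The dotted line is the median of all genes, 0.139. SLC5A1 among the sugar carriers has the highest mean, 2.27, and SLC31A1 among the other metals the lowest, -1.58.

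Probe by probe, 25 carrier genes had more than 1 measured probe. In SLC4A8 the probe means differed by 0.004, and in SLC25A4 9 probes spanned 0.12. The widest spreads were 1.40 in SLC26A2, 1.06 in SLC25A13 and 1.00 in SLC25A11. The spread between probes of those genes was thus as large as the means of most carriers called.

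**Figure D5:**
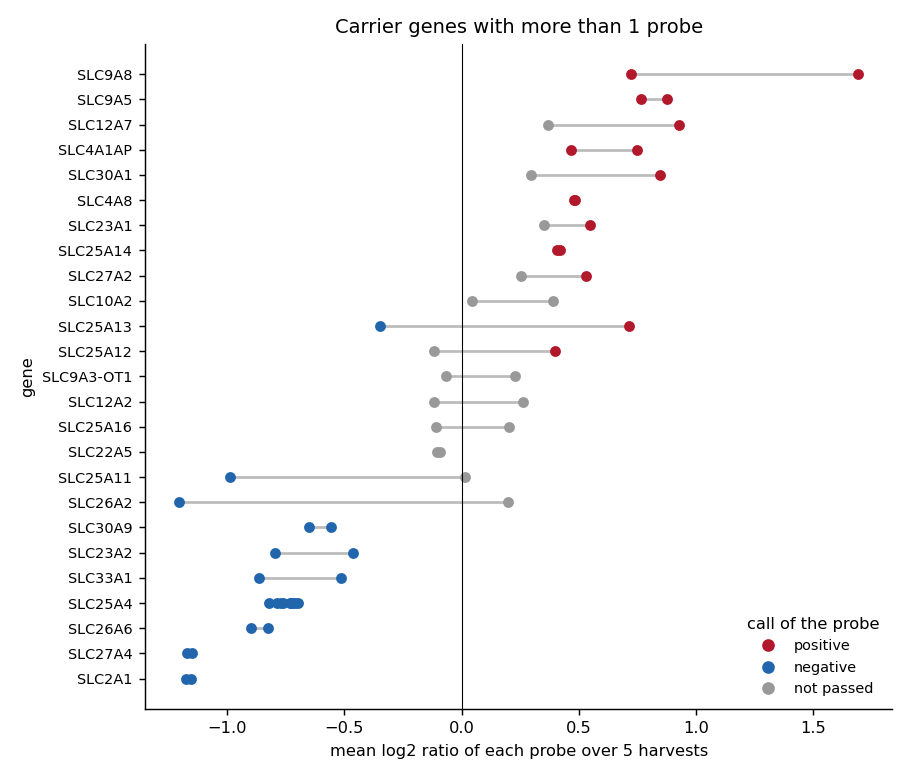
Mean log2 ratio over the 5 harvests of each probe (points, coloured by the probe's call) for the 25 carrier genes with more than 1 probe (vertical axis). The 9 probes of SLC25A4 lie together between -0.82 and -0.70, while the probes of SLC25A13 lie on opposite sides at -0.35 and 0.71.

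No carrier passed for a slope over time in limma, where 0.0114% of all genes did. In simulated data the slope fit recovered 0% of changes of 1 log2 unit from the first to the last harvest. It recovered 32% of changes of 2 and 90% of changes of 4. A slope that did not pass therefore does not show that a ratio stayed constant. At an unadjusted p of 0.05, 15 of 123 carriers had a slope (3 SLC25 and 12 others), and 15% of all genes did. SLC16A7, a monocarboxylate carrier, had the smallest p, with values of 0.88, 0.91, 0.63, 0.39 and -0.27 (limma adjusted p = 0.122). SLC11A2, the divalent metal importer, had -0.16, 0.17, 0.01, -0.10 and 1.47 and stood above 1 only at 8 h. Without the 1 h array, 4 carriers passed for the slope, where 5.94% of all genes did. These were SLC20A1, SLC20A2, SLC11A2 and SLC19A2, with limma adjusted p-values of 0.00976, 0.0141, 0.0318 and 0.0445. In each of them the 8 h value was the highest of the 5, and it lay above the 0 min value by 2.03, 1.75, 1.63 and 1.64. On the time scale of the fit 8 h lies far from the other harvests, so a positive slope call largely follows from a high 8 h value. None of the 4 is an SLC25 gene, but so few calls allow no comparison of the groups. Their call depends on leaving out the array that stands apart.

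Genes that work beside the mitochondrial carriers were taken from lists based on general knowledge. Their counts too stand beside 37% positive and 25.3% negative among all genes. With self-self subtracted, 2856 of 8725 genes were called positive and 2100 negative. Of the pores of the outer membrane and the pyruvate carrier, 3 of 4 were called negative and 0 positive. VDAC3, a pore for nucleotides and metabolites, had -0.82, -1.72, -1.49, -0.82 and -0.89, a mean of -1.15, and VDAC1 had a mean of -0.76. Of 14 genes of mitochondrial protein import, 4 were called negative and 1 positive. TIMM17A and TOMM7 had means of -0.998 and -0.88. Of 4 relatives of the SLC25 family under other symbols, MTCH1 (mean -0.49) was called negative and UCP3 (0.36) positive. The UCP3 call was lost after centring and the MTCH1 call with self-self subtracted. The medians of these lists were -0.60, -0.13 and -0.10, where all genes had 0.14.

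Beside the plasma membrane carriers, the sodium and calcium pumps were split, with 4 of 10 called positive and 5 negative. ATP2A2, the calcium pump of the endoplasmic reticulum, had a mean of -0.998, and ATP2B1, the calcium pump of the cell surface, 0.99. Of 9 partners and regulators of plasma membrane carriers, 4 were called positive and 3 negative. NEDD4L, a ubiquitin ligase of sodium carriers and channels, and SGK1, a kinase that restrains it, had means of 1.498 and 1.481. For zinc and iron handling, 5 of 8 were called negative and 1 positive, and with self-self subtracted 3 and 2. TFRC, the transferrin receptor, had -0.82, -1.69, -1.34, -1.02 and -1.81, and the metallothionein MT2A had a mean of -0.99. Metallothionein genes are close copies, so their probes may share signal. Of 24 ABC transporters, which pump by splitting ATP, 8 were called positive and 7 negative. Their median was 0.10, and -0.02 after centring, with ABCA5 at 2.13 and ABCD2 at -1.16 as the largest means in size.

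After centring, 29 other carriers were called positive and 25 negative, so the positive share of their calls went from 67.2% to 53.7%. For all genes it went from 59.4% to 48.6%. For SLC25 the counts were 6 and 10. With the self-self value subtracted, 28 of the other carriers passed on the positive side, and without the 30 min array 26 did. Among all genes, 2856 of 8725 and 2466 of 8823 did so. The split of calls outside SLC25 thus depends on where zero is set.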

How the data were processed

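The values are log2 ratios as the authors deposited them, 1 per probe and array. Per the labels' protocols, the authors divided background-subtracted spot intensities, normalised within each slide on housekeeping genes, and discarded ratios of quality below 0.5. A shared shift of those housekeeping genes would move every ratio of an array. Log base 2 was inferred from the values. Scale between arrays and direction are unknown. Each array repeats 1 value at 333 to 534 probes, and these entries were treated as not measured. The platform annotation gave the genes of the probes, with symbols brought up to date from a RefSeq gene table, with 11304 probes for 1 gene and 446 for several. Of the former, 11282 matched the table.

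Probes measured on all 5 harvests were averaged per gene. With limma 3.58.1 in R 4.3.3, 2 terms, the mean and a slope over time as log2(1 + min/10), centred, were fitted to 8748 genes over the 5 harvest arrays, with two-sided tests, empirical Bayes moderation and Benjamini-Hochberg adjustment over all genes. The fit was tested on simulated data of 8748 genes, in which only 50 genes were given a mean of each size. There it recovered 22% of means of 0.5, 70% of means of 1 and 94% of means of 2. In the data 37% of all genes were called positive and 25.3% negative, so the Benjamini-Hochberg threshold was less strict than in the simulation. These shares are therefore not the recovery in the data. A gene that did not pass may still have a mean away from 0. Single harvests were set against the central 99% of the self-self array, without a test.

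The genes described and all lists were chosen with earlier results of these data known. The genes named were, among those that passed, the 8 per side with the largest means in SLC25 and the 12 per side in the other carriers. To these were added the 4 per side with the smallest slope p, the adenine nucleotide carriers, genes with probes on both sides, up to 4 per substrate list and up to 2 per list of neighbouring genes. Members of a list beyond these were picked after their values were seen. The alternatives were keeping the repeated value, centring or scaling the arrays, the median over probes, probes on all 6 arrays, no slope, subtracting self-self, leaving out each harvest, and leaving out genes that are not carriers.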

Additional observations from a re-analysis of the deposited data

How the results depend on the processing

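With each array centred on its median, the medians of the gene means moved to -0.292 in SLC25 and 0.108 in the other carriers. Centring shifts both by the same amount, so it cannot move their difference of -0.400. That difference was -0.370 with arrays scaled to equal spread, -0.300 with self-self subtracted, and from -0.481 to -0.298 as each harvest was left out. Positive calls outside SLC25 ranged from 26, without the 30 min array, to 42, without the 0 min array, as each harvest was left out, and reached 45 with arrays scaled to equal spread. Slope calls ranged from 0 to 4, the latter without the 1 h array. The cause was not tested. Negative calls of SLC25 ranged from 8 to 10 and positive ones from 5 to 7 over all alternatives. Of 83 named carriers, 58 had the same call (positive, negative or not passed) under all 12 alternatives, and no named carrier passed on opposite sides under any of them. Each harvest has 1 array, so a single value such as that of SLC39A1 at 1 h has no replicate. No paired analysis was possible because each group has 1 array and the labels give no replicate numbers.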

Other observations

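Some of the 101 measured genes outside SLC25 were also divided by where they are known to be expressed. The others were put in neither list. The lists were written after the values had been seen, so no test was made, and the choice of genes may affect the counts. Of 36 carriers known mainly from single tissues such as kidney, intestine, liver, brain or retina, 19 were called positive and 2 negative, with a median gene mean of 0.37. SLC5A1, SLC22A6 and SLC24A1, all called positive, are among them, and the gene means of the 36 ran from -0.67 to 2.27. Of 35 carriers found in most tissues, 12 were called positive and 13 negative, with a median of -0.09. SLC31A1, SLC29A1 and SLC2A1, all called negative, are among these 35, whose gene means ran from -1.58 to 1.58. After centring the counts were 11 and 4 in the tissue-restricted and 12 and 14 in the widespread carriers, and with self-self subtracted 10 and 2 (35 genes) and 12 and 14. Of all genes, 37% were called positive and 25.3% negative without centring or subtraction. After centring, 2540 of all 8748 genes were called positive and 2681 negative. With self-self subtracted, 2856 of 8725 genes were called positive and 2100 negative.

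On the arrays, the medians of the tissue-restricted carriers were 0.06 at self-self and 0.16, 0.62, 0.50, 0.29 and 0.20 over the harvests in order of time. Those of the widespread carriers were -0.17, -0.14, 0.01, -0.10 and -0.13. In 23 of 36 tissue-restricted carriers the 10 min value was above the 8 h value, and in 16 of 35 widespread ones. The share over all genes was not counted, so these counts cannot be set against a background. The median of all genes was 0.11 at 10 min and 0.18 at 8 h. The median size of the gene mean without its sign was 0.39 in the restricted and 0.63 in the widespread carriers. The level of these mRNAs in the cells is not known from ratios, and its part in this pattern was not tested.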
